A study of Mus musculus with 8 samples.

Results

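The genes Dppa3, Nanog, Gdf3, Apobec1 and Slc2a3 are neighbours on mouse chromosome 6, and the ChIP-seq peaks of Prdm4-EGFP across them are described here. The 5 genes, neighbours by position, were chosen with earlier results on these peaks known. The window was 300 kb of mm9, from 126.4 kb before to 173.6 kb after the TSS of Dppa3. All peaks of any score in that window were taken from each anti-GFP peak list, and the distance of each peak to the transcription start sites (TSSs) of the 5 genes was measured. The window held 10 of the 5988 peaks of the 4 lists, which fell into 3 of 2361 merged loci. It held 2 of the 627 Prdm4 binding regions, each the core of overlap of 4 peaks, 1 from every sample, that scored 10 or more. As the peaks were used to choose the genes, their scores are given as a description and were not tested.

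Prdm4 is a zinc finger protein of the PR/SET domain family, and the study mapped its occupancy in mouse embryonic stem cells (ESCs). CCE ESCs, a 129/Sv line, were stably transfected with full-length Prdm4 fused to EGFP and driven by the chicken beta-actin promoter, so the tagged protein was present in addition to the endogenous one and outside its normal control. Chromatin from 2 independent clones, B1 and B6, was precipitated with an anti-GFP monoclonal antibody in 2 experiments each. The samples of clone B1 are called replicates 1 and 2, and those of clone B6 replicates 3 and 4. Mouse IgG precipitations paired with the samples served as controls, and lists for these 4 were not analysed here. There were 1470, 1806, 1446 and 1266 peaks in the lists of replicates 1 to 4, and the median scores lay between 13.7 and 15.2. They give no read counts, so the depth behind a score is unknown, no source used here names the scale of the score, and weaker binding below the peak caller's threshold would not be seen.

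The cluster holds genes that are active together in pluripotent and germ cells. Nanog encodes a homeodomain factor of the core pluripotency network. Dppa3, also known as Stella, encodes a maternal and germ cell factor that protects DNA methylation in the zygote and marks naive ESCs. Gdf3 encodes a transforming growth factor beta ligand related to Nodal. On either side of these genes lie Apobec1, which encodes the enzyme that edits the apolipoprotein B mRNA, and Slc2a3, which encodes a glucose transporter of neurons and early embryos.

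In the annotation of mm9 (GENCODE vM1), Dppa3 (ENSMUSG00000046323.2) lies on the plus strand at chr6:122576428-122580290 and Nanog (ENSMUSG00000012396.5) on the plus strand at chr6:122657507-122664651. Gdf3 (ENSMUSG00000030117.4, chr6:122555421-122560105), Apobec1 (ENSMUSG00000040613.7, chr6:122527810-122552462) and Slc2a3 (ENSMUSG00000003153.4, chr6:122677827-122751658) lie on the minus strand. The Prdm4 peaks were confined to 3 places on the Dppa3 side of the window. A binding region present in all 4 samples lay upstream of Dppa3, and a second, stronger one lay in the intergenic sequence downstream of Apobec1. A weak peak lay in the intron of Gdf3 in both samples of clone B1. No peak of any score lay in Nanog, Slc2a3 or Apobec1, or within 5 kb of their TSSs, in any of the 4 samples.

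The sequences of both binding regions are shown around the tripartite motif that the study describes for Prdm4, because this element sits close to the middle of each. The motif is read here as GGG, then 1 to 4 bases of any kind, then CT, any base, and GAAAC. The stretches are from mm9, plus strand, at chr6:122525821-122525976 (downstream of Apobec1) and chr6:122574537-122574766 (upstream of Dppa3). Capitals mark exact matches to the motif and, in the Dppa3 region, also 2 copies of ATTTGCAT, the reverse complement of the octamer ATGCAAAT.
Downstream of Apobec1: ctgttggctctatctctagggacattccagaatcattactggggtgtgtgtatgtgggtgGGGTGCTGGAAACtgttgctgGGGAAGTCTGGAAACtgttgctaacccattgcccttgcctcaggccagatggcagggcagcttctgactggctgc
Upstream of Dppa3: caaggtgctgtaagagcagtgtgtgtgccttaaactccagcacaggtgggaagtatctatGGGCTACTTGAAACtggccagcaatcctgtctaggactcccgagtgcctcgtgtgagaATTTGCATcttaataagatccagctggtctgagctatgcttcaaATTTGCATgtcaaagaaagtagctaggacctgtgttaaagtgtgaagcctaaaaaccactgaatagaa

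**Figure D1:**
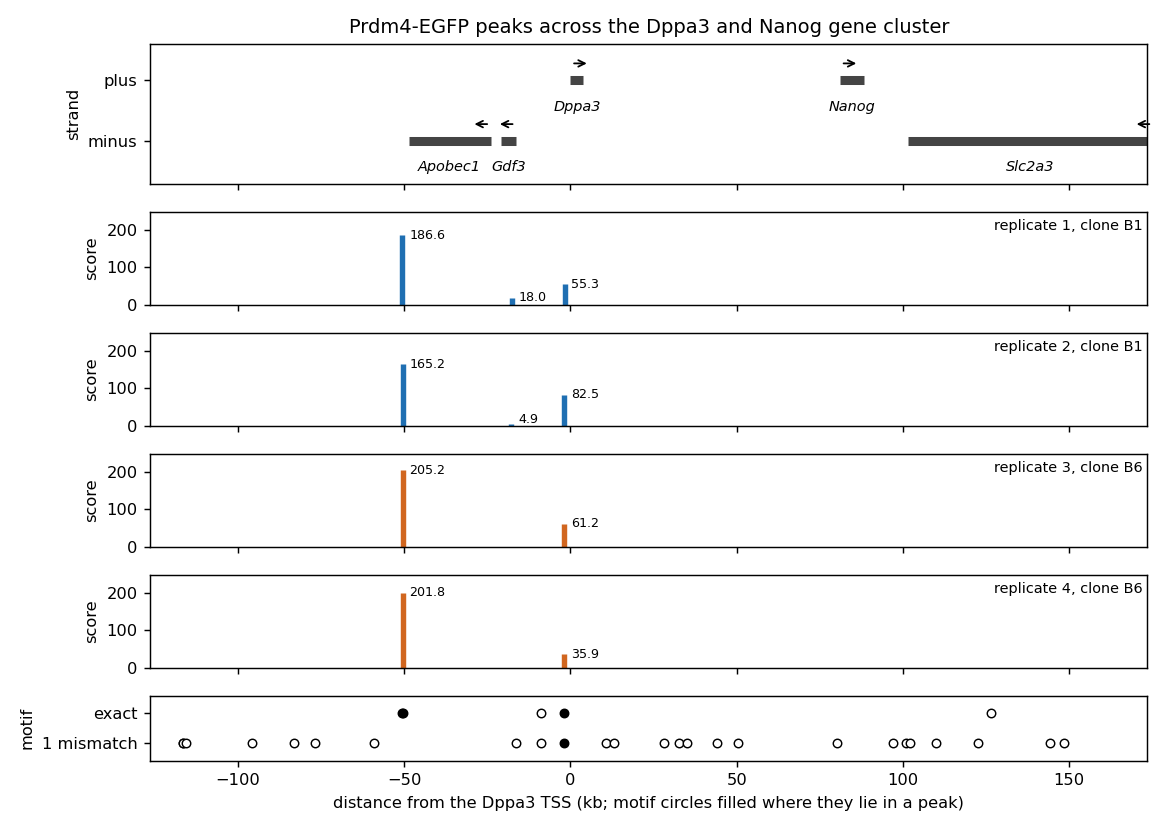
Map of the window, with distance from the Dppa3 TSS in kb on the horizontal axis. The top panel shows the bodies of the 5 genes by strand with an arrow at the TSS end, the 4 middle panels show the score of each peak as a bar in replicates 1 to 4 (blue, clone B1; orange, clone B6), and the bottom panel shows exact and 1-mismatch matches to the motif, filled where they lie in a peak. The bars near -50.5 kb and -1.80 kb recur in all 4 samples, the Gdf3 bar is seen in replicates 1 and 2, and no bar stands near Nanog or Slc2a3.

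The binding region upstream of Dppa3 spanned chr6:122574467-122574784, or 318 bp, in intergenic sequence. Its centre lay 1.80 kb upstream of the first Dppa3 TSS, at 122576428, and 2.15 kb upstream of that of the shorter transcript Dppa3-002. Its scores in replicates 1 to 4 were 55.3, 82.5, 61.2 and 35.9, with a mean of 58.7 ± 19.2 (SD, n = 4). Replicate 2 was highest and replicate 4 lowest, and the values of the clones overlapped, with a mean of 68.9 in clone B1 and 48.5 in clone B6. An exact two-sided permutation test of 2 samples against 2 gives a p of 1 in 3 at the smallest, so the clones were not tested. The mean ranked 202 among the 627 binding regions, whose median was 37.6.

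Within each list the Dppa3 peak ranked 218, 154, 197 and 286, which is percentile 85.2, 91.4, 86.3 and 77.3 of the peaks of replicates 1, 2, 3 and 4. Its standing was thus lowest in the sample where its score was lowest. The SD of its log10 score over the samples, 0.150, was above that of 74.3% of the binding regions (median 0.108).

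The binding region downstream of Apobec1 spanned chr6:122525721-122526072, or 352 bp, and its centre lay 1.91 kb past the 3′ end of Apobec1, measured from its longest transcript. It scored 186.6, 165.2, 205.2 and 201.8 in replicates 1 to 4, with a mean of 189.7 ± 18.2 (SD, n = 4) and rank 37 of all binding regions. Replicates 3 and 4 were high and replicates 1 and 2 low, so the clones did not overlap here, with means of 175.9 in clone B1 and 203.5 in clone B6. Both samples of clone B6 stood above both of clone B1 at 14.0% of all binding regions, and both of clone B1 above both of clone B6 at 30.8%. The peak ranked 28, 47, 36 and 32 in the lists, at percentile 97.4 to 98.1. The SD of its log10 score was 0.0429, at percentile 6.70 of all binding regions, so this was among the more even of them over the samples.

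The score of the distal region was above that of the Dppa3 region in every sample, and the lowest of its 4 scores, 165.2, exceeded the highest score at Dppa3, 82.5. This order was given by the same peaks that chose the window and was not tested.

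The Gdf3 peak was detected in clone B1 alone. It spanned chr6:122558601-122558824 (224 bp) with a score of 18.01 in replicate 1 and chr6:122558485-122558823 (339 bp) with a score of 4.86 in replicate 2. Both intervals lay in intron 1 of the 2-exon Gdf3 transcript, centred 1.39 and 1.45 kb downstream of the TSS at 122560105. Replicate 1 was above the minimum score of 10 and replicate 2 below it, and the peak ranked 659 of 1470 and 1635 of 1806. Replicates 3 and 4 had no peak there, which does not show that binding was absent from clone B6.

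A presence in both samples of clone B1 and neither of clone B6 was seen at 5.29% of the 2361 merged loci, against 1.10% for the opposite pattern and 38.2% with a peak in all 4 samples. Loci of the kind seen at Gdf3 had a median score of 8.81. By any peak of any score in at least 1 sample, Dppa3 and Gdf3 were the members with a peak within 5 kb of a TSS, a state shared by 3.21% of the 22342 protein-coding genes. Since the members were chosen with these peaks known, nothing is read from that share.

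**Figure D2:**
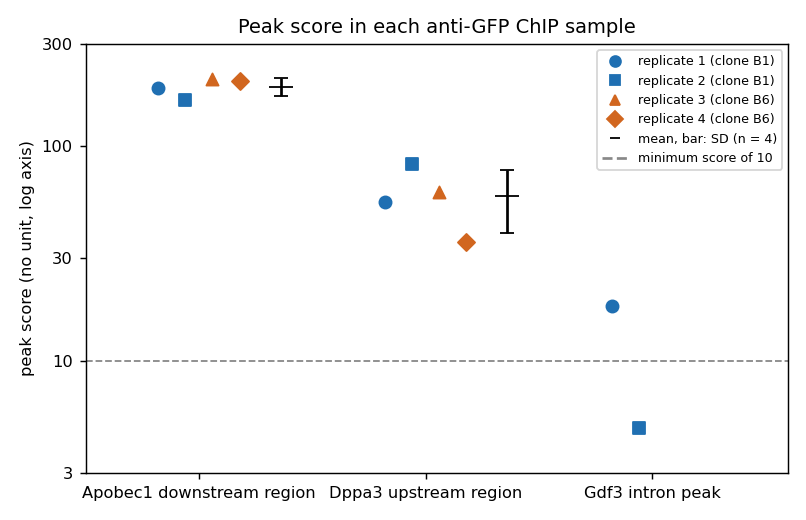
Peak score (no unit, log axis) at the 3 loci of the window in each anti-GFP ChIP sample, coloured by clone. Black marks give the mean and SD over 4 samples at both shared regions, and the dashed line is the minimum score of 10. The region downstream of Apobec1 sits between 165.2 and 205.2, the Dppa3 region between 35.9 and 82.5, and the Gdf3 peak, seen in clone B1, at 18.01 and 4.86.

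The extents of the peaks differed in width more than in position. Upstream of Dppa3 the peaks of replicates 1 to 4 were 415, 551, 419 and 318 bp wide, and the interval of replicate 4 lay within the other 3, so it was itself the core of overlap. Downstream of Apobec1 the widths were 370, 424, 426 and 384 bp. The centres of the Dppa3 peaks lay 1.76, 1.82, 1.81 and 1.80 kb from the TSS. At Dppa3 the widest peak also had the highest score and the narrowest the lowest.

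**Figure D3:**
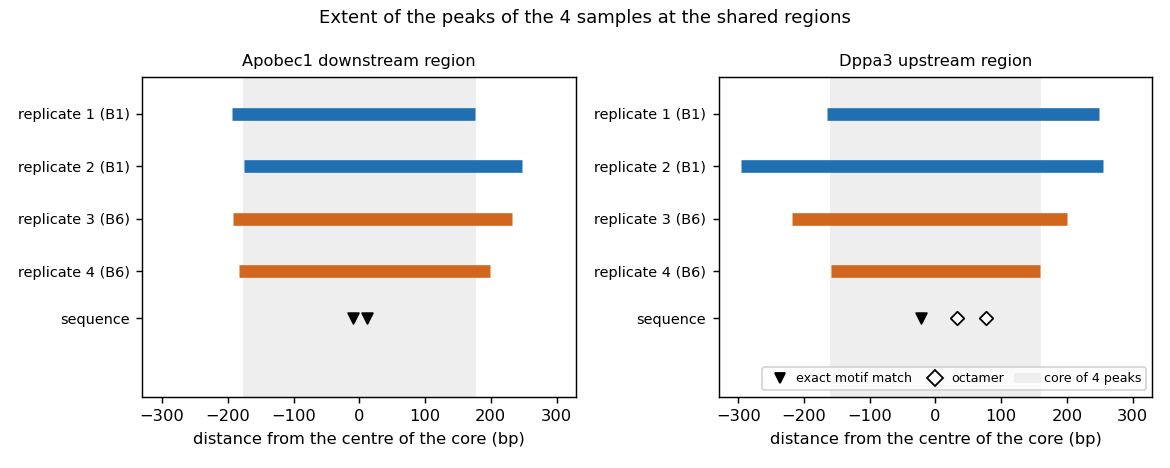
Extent of the peak of each sample (bars, blue for clone B1 and orange for clone B6) around the centre of the core of overlap, in bp, at the region downstream of Apobec1 and at the Dppa3 region. The grey band is the core, triangles are exact motif matches and diamonds octamers. Motif matches lie 9.5 and 12.5 bp from the centre in the first panel and 22 bp from it in the second.

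The sequence was not used to choose the genes, but the study derived the motif from these same binding regions, so its excess in them is no independent result. Apart from these regions, the study recovered the GAAAC core by selecting DNA with the recombinant zinc finger domain. It also tested the parts of the motif in vitro with mutated probes. Upstream of Dppa3 the motif occurred once as an exact match, GGGCTACTTGAAAC at chr6:122574597-122574610 on the plus strand, with a spacer of 3 bases between GGG and CT, 22 bp from the middle of the region. Downstream of Apobec1 it occurred as 2 exact matches on the plus strand, GGGTGCTGGAAAC at chr6:122525881-122525893 with a spacer of 2 bases and GGGAAGTCTGGAAAC at chr6:122525902-122525916 with a spacer of 4. Their centres lay 9.5 and 12.5 bp on either side of the centre of the region. An exact match was present in 50.7% of all binding regions and at least 2 in 16.4%, while equally wide intervals placed 5 kb away held an exact match in 0.319%.

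The Gdf3 peak held no match with up to 2 mismatches outside GAAAC. Its closest element has 3 mismatches and lies 8.5 bp from the centre of the peak of replicate 1. With up to 3 mismatches a match was found in 96.0% of binding regions and in 25.5% of the intervals placed 5 kb away. With up to 2 mismatches the share was 92.3% against 11.5%, and it was 79.2% of the 125 loci seen in both samples of clone B1 and neither of clone B6. The element is shown in capitals in its mm9 sequence on the plus strand, chr6:122558691-122558717.
Gdf3 intron peak: agcctaaGGCTAGAAGAAACtactttt

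The motif also occurred in the window without a peak. There were 5 exact matches, 3 of them in the binding regions described and 2 without a peak in any sample. With 1 mismatch there were 25 further sites, of which 1 lay in a peak, that of replicate 2 upstream of Dppa3, and with 2 mismatches 88, none in a peak. Over the genome, 2.56% of 16811 exact matches lay in a binding region.

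Both exact matches without a peak, and the sites with 1 mismatch within 1 kb of the Nanog and Gdf3 TSSs, are shown with the match in capitals, because they set the sequence beside the missing peak. Other sites with 1 or 2 mismatches and no peak are not shown, some of them closer to a gene. The first, at chr6:122567595-122567621 on the plus strand, holds the same 13 bases as the first match of the distal region and lies 7.50 kb upstream of the Gdf3 TSS and 15.1 kb upstream of that of Apobec1. The second, at chr6:122702985-122703013 on the minus strand, is an exact match in an intron of the longest Slc2a3 transcript, 10.1 kb upstream of the nearest Slc2a3 TSS, which belongs to a shorter transcript, and 45.4 kb downstream of the nearest Nanog TSS. The third, at chr6:122656736-122656762 on the plus strand, has 1 mismatch and lies 758 bp upstream of Nanog. The last, at chr6:122559895-122559920 on the plus strand, has 1 mismatch and lies 198 bp downstream of the Gdf3 TSS, in the coding part of exon 1.
Upstream of Gdf3, no peak: tgtgagtGGGTGCTGGAAACtgaaccc
Slc2a3 intron, no peak: agtgcgtGGGCAGGCTGGAAACccagcaa
Upstream of Nanog, no peak: cagtctcGGGTACGTGAAACtctatct
Gdf3 exon, no peak: aaggtcaGAGTCTTGAAACtcggatg

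Within 5 kb of a TSS, Dppa3 had 1 exact match, and Nanog, Apobec1, Gdf3 and Slc2a3 had 0. Dppa3, Nanog and Gdf3 each had 1 match with 1 mismatch in that range, that of Dppa3 lying in the peak of replicate 2. In the 300 bases of each promoter, from 250 before to 50 after a TSS, the best match had 2 mismatches and stood at the TSS of Dppa3-002 and at the Slc2a3 TSS at 122692938. A match with up to 2 mismatches was present in 11.97% of all 45940 promoters of protein-coding transcripts, and an exact match in 0.331%. No promoter of Nanog, Gdf3 or Apobec1 held a match with up to 2 mismatches, which says only that these letters are not in these windows.

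The octamer ATGCAAAT, which POU domain factors such as Oct4 are known to recognise, was looked for after the Dppa3 sequence had been seen. The Dppa3 region held 2 copies, both on the minus strand, 33 and 77 bp from its centre on the side of the gene. The region downstream of Apobec1 and the Gdf3 peak held 0. At least 1 copy was present in 6.38% of binding regions and 1.44% of intervals placed 5 kb away, and at least 2 copies in 2 binding regions (0.319%), the Dppa3 region being one, and in 1 such interval. TCAAGGTCA, the element of the orphan receptor Esrrb, was absent from all 3 loci, as from most binding regions (present in 1.12%, against 0.957% of intervals placed 5 kb away). G and C made up 44.3% of the Dppa3 region and 43.5% of the region downstream of Apobec1, below the median of 50.5%.

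The 2 binding regions differed in how often their sequence recurs. In alignments of 100 bp or more with at least 70% identity, the region downstream of Apobec1 was similar to 161 of the other 626 binding regions (25.7%) at a median identity of 75.6%. In the genome it had 575 such alignments elsewhere, 163 of them (28.3%) in a binding region and 0 in the window. The Dppa3 region and the Gdf3 peak had 0 similar sequences by this measure. Ranked by mean score with the regions similar to it, the region downstream of Apobec1 stood at 20 of 162. The similar regions had a median mean score of 62.9, from 15.3 to 332.6, and the remaining 465 regions, the Dppa3 region among them, a median of 33.8. At least 2 exact motif matches, as downstream of Apobec1, were present in 44.7% of the similar regions and in 6.45% of the remaining ones. The similar regions were picked by alignment to a sequence that holds 2 such matches. This difference is thus partly set by the choice and was not tested. Within 5 kb of a TSS lay 9.94% of the similar regions and 37.4% of the remaining ones. The study reported that part of its peaks lay within ERV1:RLTR23 repeat regions. The sequence was not assigned to a named repeat here, so whether the similar regions are among those peaks was not examined.

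**Figure D4:**
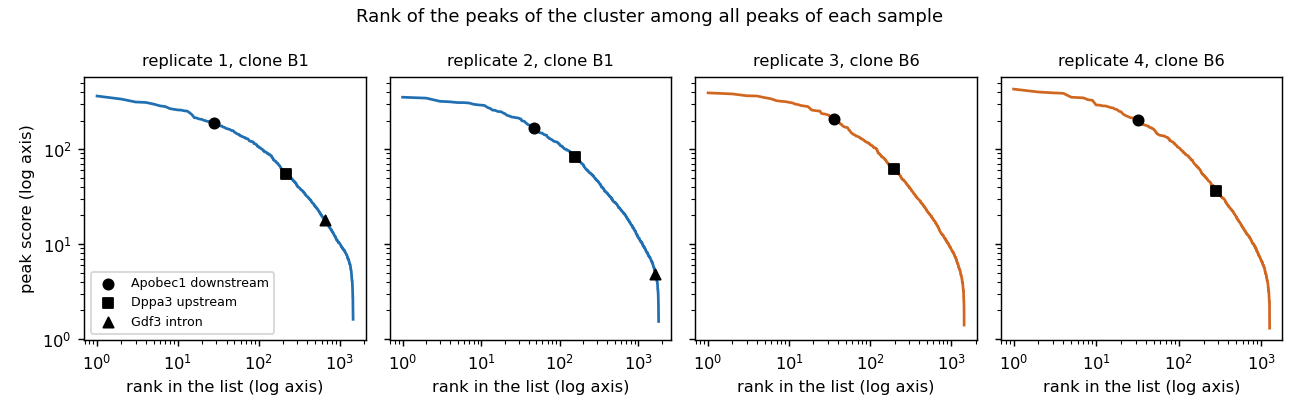
Score against rank (both log axes) of all peaks in each sample, with the peaks of the window marked (circle, downstream of Apobec1; square, Dppa3; triangle, Gdf3 intron). The peak downstream of Apobec1 ranks 28 to 47 and the Dppa3 peak 154 to 286 over the 4 samples, and the Gdf3 peak ranks 659 in replicate 1 and 1635 in replicate 2.

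By distance, the nearest TSS of a protein-coding gene to the Dppa3 region was that of Dppa3 itself. Over all annotated transcripts it was that of a Y_RNA, a small noncoding RNA, 1.06 kb away. The region lay 14.5 kb upstream of Gdf3, 22.2 kb upstream of Apobec1, 82.9 kb upstream of Nanog and 117.7 kb downstream of the nearest Slc2a3 TSS. For the region downstream of Apobec1, distances are given to the 5 members only. It lay 24.2 kb downstream of the nearest Apobec1 TSS, 34.2 kb downstream of Gdf3 and 166.4 kb downstream of Slc2a3. It was 50.5 kb upstream of Dppa3 and 131.6 kb upstream of Nanog. The same region was thus nearest for all 5 members when each gene was measured from its closest TSS, and this was the region upstream of Dppa3.

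Dppa3 was the 1 member of 5 with a binding region within 5 kb of a TSS, where 0.931% of all protein-coding genes had one. Within 10 kb there was also 1 member, against 1.38% of genes. Within 50 kb there were 3 members, Dppa3, Gdf3 and Apobec1, against 4.72% of genes, but neighbours share regions and the cluster was chosen for them, so nothing is read from these counts. The share of genes with a binding region as close or closer was 0.537% for Dppa3, 1.76% for Gdf3, 2.39% for Apobec1, 7.32% for Nanog and 9.77% for Slc2a3. The median distance over all genes was 1123 kb.

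In each sample the peak nearest to Nanog was that upstream of Dppa3, at 82.8 to 82.9 kb. For Gdf3 and Apobec1 the nearest peak differed by clone, as the Gdf3 intron peak was called in clone B1 alone. It lay 6.25 and 6.19 kb upstream of Apobec1 in replicates 1 and 2, while in replicates 3 and 4 the peak nearest to Apobec1 was that at Dppa3, 22.2 kb away.

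The 2 binding regions stood 48.7 kb apart, centre to centre. Of 607 pairs of neighbouring binding regions on a chromosome, 5.44% were as close or closer, and the median gap was 1918 kb. Tiled along the chromosomes, 6.49% of windows of 300 kb held at least 1 binding region and 0.603% at least 2. The window was chosen with these peaks known, so nothing is read from these shares. Outside the window the nearest peaks were far away, 972 to 2225 kb below it and 1677 to 1678 kb above it, and the scores of these were 7.45 to 15.4. The peak above the window was present in all 4 samples, at 15.02, 11.5, 15.4 and 11.05.

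Dppa3 and Gdf3 were compared with other genes of pluripotency in a list of 34, compiled with results of these data known. Of these, 4 had a binding region within 5 kb of a TSS (11.8%), namely Dppa3, Dppa4, Klf5 and Nodal, against 0.931% of all protein-coding genes. That count was 2 (Dppa3 and Klf5) with a minimum score of 20, and 5 with no minimum score. Within 50 kb, at the minimum score of 10, there were 7 (20.6%), with Gdf3, Zfp42 and Dppa2 added, against 4.72% of all genes. Nanog was not among them. The median distance was 361.6 kb over the list and 1123 kb over all genes. Gdf3 entered through the region upstream of Dppa3, so the cluster contributed 1 region, and Dppa2 and Dppa4, neighbouring genes for SAP domain proteins, likewise shared 1. As the list holds genes of this cluster and others already known to have a region, nothing is read from its shares against those of all genes.

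Among the regions of these 7 genes, that of Dppa3 had the highest mean score, 58.7 ± 19.2 (SD, n = 4). The region in Klf5, which encodes a Krüppel-like factor of ESCs, scored 54.9 ± 15.6, a difference smaller than the spread between samples. The region in Nodal, which encodes a ligand of the same family as Gdf3, scored 16.5 ± 8.11, that near Zfp42, a marker of undifferentiated ESCs also known as Rex1, 15.2 ± 5.24, and that of Dppa2 and Dppa4 13.5 ± 2.73. An exact match to the motif was present at Dppa3, Klf5 and Zfp42, while the best match had 1 mismatch at Nodal and 2 at Dppa2 and Dppa4. The octamer was present at Dppa3 and at none of the other regions of these genes, and none of them was similar in sequence to the region downstream of Apobec1.

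**Figure D5:**
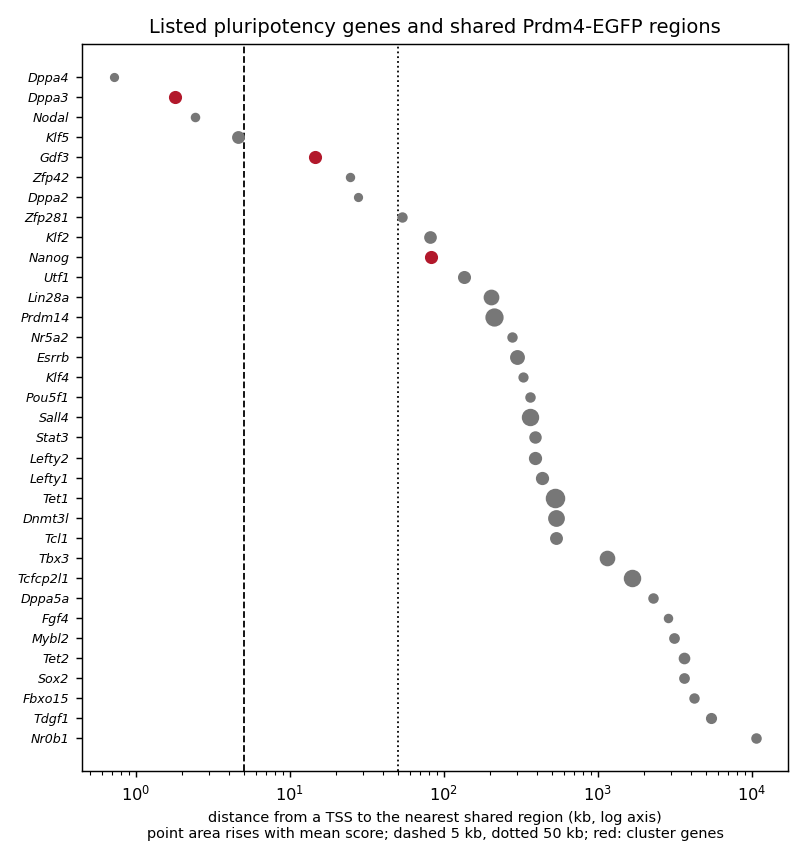
Distance in kb (log axis) from a TSS of each of 34 listed pluripotency genes to the nearest binding region. Point area rises with the mean score of the region, genes of the cluster are red, and vertical lines mark 5 and 50 kb. Dppa3 sits at 1.80 kb, Gdf3 at 14.5 kb and Nanog at 82.9 kb.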

How the data were processed

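The authors used Stampy to map the reads to mm9 and called peaks over the mouse IgG control with MACS2, both with default parameters (MACS2 and mm9 are also named in the submitters' processing notes). Versions are not given in the sources used here. They deposited 1 peak list per anti-GFP sample, and the value used is the score that the authors' peak caller gave each peak. Its scale is not named, and it was not normalized between samples here.

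Peaks scoring 10 or more were intersected over the 4 samples, and cores of at least 1 bp were kept, as in the study's methods. Merged loci join overlapping peaks of any score. Distances run from the centre of a region to TSSs of protein-coding transcripts in GENCODE vM1, whose build is that of the lists. The motif was searched on both strands with GAAAC complete. Sequences, promoters included, were read from the mm9 genome, and similar ones were found with BLAST+ at an E-value of 1e-10. Positions count from 1. The intersection of peaks, the motif search and the distances from a centre to a TSS were tested on simulated data. The other steps were not. Python 3.11.15, numpy 2.4.6, matplotlib 3.10.9, samtools 1.23.1 and BLAST+ 2.17.0 were used.

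The genes, the list of 34 and the rule for named genes (members, protein-coding genes of the window, and listed genes with a binding region within 50 kb) were chosen with earlier results of these data known. Some annotated genes of the window are not reported here. The 4 samples were treated as replicates of 1 condition. Alternatives covered the minimum score, the overlap, the TSS set, the distance, the mismatches and each replicate left out. IgG samples and reads were not used here.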

Additional observations from a re-analysis of the deposited data

How the results depend on the processing

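Of 50 recomputed values under the alternatives, 42 stayed within the limits set for a change and 8 moved. For the mean scores the limit was 1 SD over the samples. The median, or the mean with 1 replicate left out, cannot differ by more than that. Those values therefore could not have moved and say nothing on stability. With a minimum score of 50 the window held 1 binding region, that downstream of Apobec1, because the Dppa3 peak of replicate 4 scored 35.9. From the nearer edge of the core, the distance to the nearest TSS of a member was 24.07 kb downstream of Apobec1 and 1.64 kb at Dppa3. With TSSs of all annotated transcripts, the nearest to the Dppa3 region was that of a Y_RNA, 1.06 kb away. That alternative was not run for the region downstream of Apobec1, whose distances are to TSSs of the 5 members. Members with a binding region numbered 0 within 1 kb and 3 within 50 kb. Listed pluripotency genes numbered 7 within 50 kb and, with a minimum score of 20, 2 within 5 kb (Dppa3 and Klf5). With each replicate left out in turn, the mean score was 184.5 to 197.9 downstream of Apobec1 and 50.8 to 66.3 at Dppa3. The number of binding regions in the window was 2 each time. Leaving out a replicate only drops a requirement, so it could not have removed either region. No paired analysis was possible because the results come from no test and no IgG values were analysed here. The lists hold no read counts, so depth could not be weighed, and the 2 clones share the parent line and the transgene.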
